A study of Mus musculus with 12 samples.

Results

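Toll-like receptors (TLRs) are innate immune sensors, and their transcripts were followed here in mouse scars that had or had not been stretched. The genes described are 9 receptors, Tlr1, Tlr2, Tlr3, Tlr4, Tlr6, Tlr7, Tlr8, Tlr9 and Tlr13, together with Myd88, the adaptor that most of them share. They were taken by gene symbol from 12 tables of read counts per gene. They are 10 of the 35976 genes listed, and all 10 were among the 18853 genes with enough counts to be tested.

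Poly(A) RNA from scars on the backs of male mice aged 8 to 12 weeks was sequenced, with 3 mice in each of 4 groups. Tem1WT/WT (wild-type) mice carried the normal Tem1 gene (symbol Cd248), which encodes endosialin, a membrane protein of fibroblasts and pericytes. In Tem1lacZ/lacZ mice the single exon of Tem1 had been replaced by lacZ in all cells, on a C57BL/6J background. Every mouse received a 1.5-cm wound and, on day 6, a plastic device over it. In the traction groups the device was lengthened by 1 mm per day until it had gained 8 mm, whereas sham mice wore the same device at a constant length. The sham scars are therefore healing wounds that carry a device, and unwounded skin was not analysed here. The study asked whether loss of Tem1 alters scarring under stretch.

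TLRs bind microbial molecules, and some also respond to molecules released from damaged tissue. Tlr1, Tlr2, Tlr4 and Tlr6 act at the cell surface, where Tlr2 pairs with Tlr1 or Tlr6 to bind lipoproteins and Tlr4 binds lipopolysaccharide. Tlr3, Tlr7, Tlr8, Tlr9 and Tlr13 sit in endosomes and bind nucleic acids, and macrophages, neutrophils and dendritic cells of the skin are among the cells that carry many of these receptors. In GENCODE on build GRCm38, Tlr2 lies at chr3:83836272-83841767, Tlr6 at chr5:64952031-64960097 and Tlr13 at chrX:106143204-106160493. Tlr1 lies next to Tlr6 on chromosome 5, Tlr7 next to Tlr8 on the X chromosome, Tlr9 and Myd88 on chromosome 9, Tlr4 on chromosome 4 and Tlr3 on chromosome 8.

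The libraries held 41536788 to 64644293 counted reads each. Cd248 lay at 92.4 to 337 CPM (reads scaled to library size) in the 6 Tem1WT/WT libraries and at 0 to 0.248 CPM in the 6 Tem1lacZ/lacZ libraries. Markers of fibroblasts, keratinocytes and macrophages were present in every library. Replicate 1 of the Tem1WT/WT traction group stood apart from the rest: its 10 neutrophil markers summed to 2276 CPM, against 449 and 95.8 CPM in the other two libraries of its group. The same sum lay between 36.2 and 59.1 CPM in Tem1WT/WT sham, 51.4 and 80.1 CPM in Tem1lacZ/lacZ sham, and 95.3 and 136 CPM in Tem1lacZ/lacZ traction, and the defining marker Ly6g was at 0 in 7 of the 12 libraries. The same replicate was the highest of the 12 libraries for Tlr1, Tlr2, Tlr4, Tlr6, Tlr13 and Myd88 and the lowest for Tlr7. Replicate 1 of the Tem1lacZ/lacZ traction group differed from its group too. Its 4 keratinocyte markers summed to 39744 CPM, against 13075 and 16590 CPM in replicates 2 and 3. Its 5 fibroblast markers summed to 10004 CPM, against 23438 and 20044 CPM.

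In Tem1WT/WT scars traction was accompanied by higher transcript levels of 3 of the 10 genes: Tlr6 (5.48-fold), Tlr2 (3.97-fold) and Tlr13 (3.3-fold). The call is an adjusted p under 0.05 in edgeR's quasi-likelihood test with Benjamini-Hochberg adjustment over all tested genes, and 9.15% of those genes were called in the same comparison. None of the other 7 was called. The median log2 fold change over the 10 was 0.75, against -0.01 over all tested genes, and 8 of the 10 values were positive. At an unadjusted p under 0.05 there were 5 of the 10 (31.4% of all tested genes), the added genes being Tlr1 and Myd88. DESeq2 called the same 5 (21.6% of all genes), whereas limma-voom with sample weights called Tlr6 and Tlr13 (3.97%). For 5 genes every traction library lay above every sham library (17.7% of all genes), and for Tlr3 every traction library lay below (18%). In bulk tissue fewer cells of a type and less RNA per cell cannot be told apart.

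**Figure D1:**
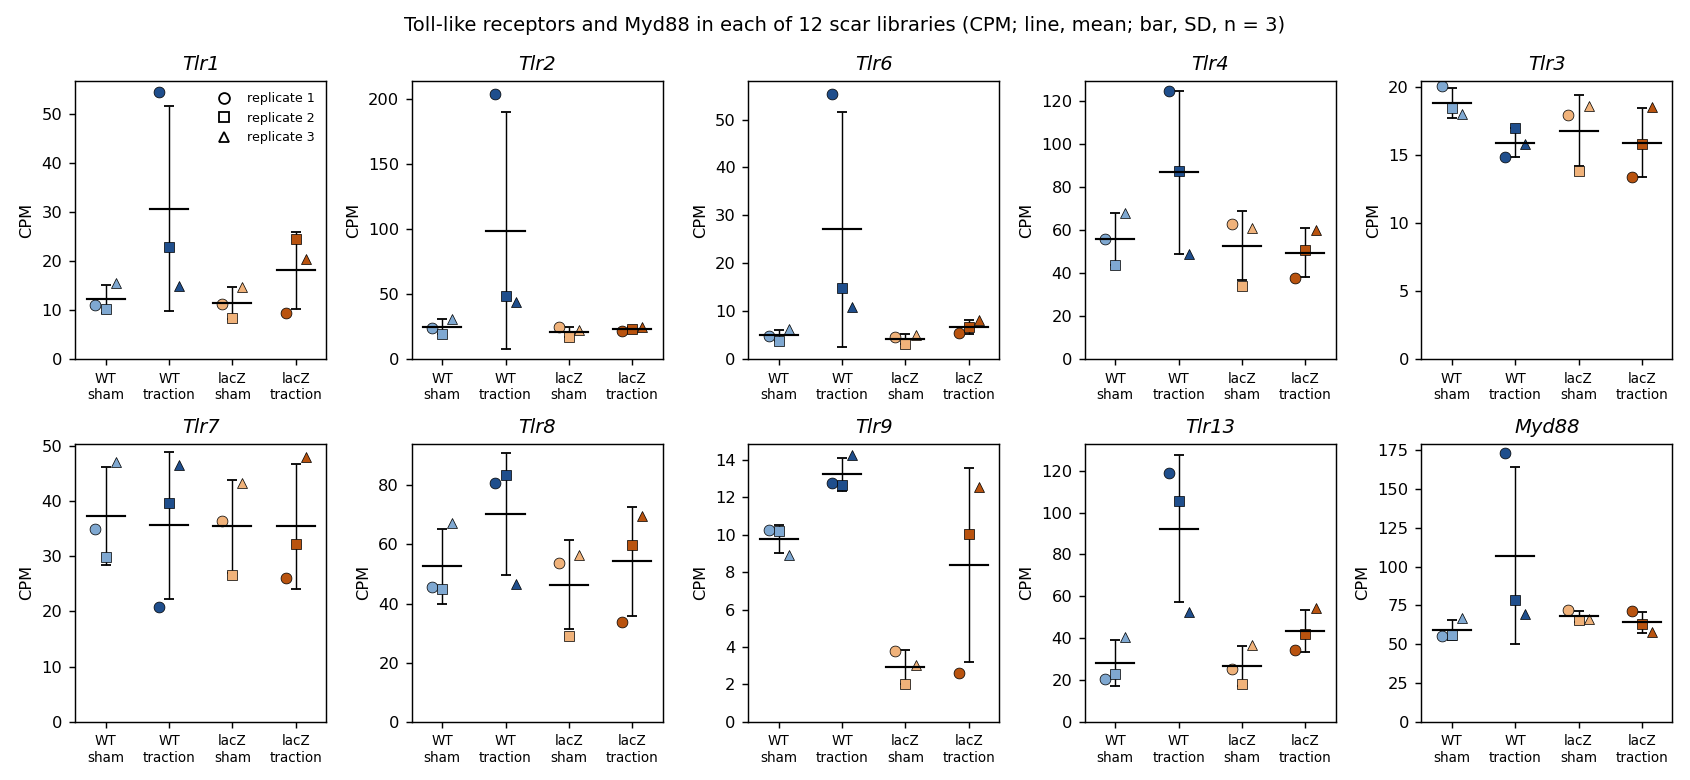
Level of each gene in every library (vertical axes, CPM, each panel with its own scale from 0; horizontal axes, the 4 groups). Circles, squares and triangles are replicates 1, 2 and 3, the line is the group mean and the bar the SD over 3 mice. Replicate 1 of Tem1WT/WT traction is the top point for Tlr2 at 204 CPM and the bottom point for Tlr7 at 20.8 CPM.

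Among the surface receptors, Tlr2, the lipoprotein receptor that forms dimers with Tlr1 and Tlr6, was at 24.0, 19.6 and 31.0 CPM in the 3 Tem1WT/WT sham libraries (replicates 1, 2 and 3). It was at 204, 48.4 and 43.8 CPM in the 3 Tem1WT/WT traction libraries. The groups did not overlap, and replicate 1 lay far above the other stretched scars. The log2 fold change was 1.99 (SE 0.50, edgeR adjusted p = 0.0398). Without Tem1, Tlr2 was at 24.3, 16.6 and 22.1 CPM after sham and 21.4, 23.5 and 24.4 CPM after traction, so that the groups overlapped (log2 fold change 0.13, 95% interval -0.94 to 1.21).

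Tlr6, the partner of Tlr2 for diacylated lipoproteins, was the least abundant receptor per length in Tem1WT/WT sham scars. It was at 4.8, 3.82 and 6.21 CPM after sham and 55.4, 14.9 and 10.9 CPM after traction in Tem1WT/WT mice (log2 fold change 2.45, SE 0.54, edgeR adjusted p = 0.0326). All 3 stretched scars lay above the unstretched ones, again with replicate 1 on top. The Tem1lacZ/lacZ scars had 4.62, 3.08 and 4.95 CPM of Tlr6 after sham and 5.35, 6.60 and 8.16 CPM after traction. These groups did not overlap either, but the log2 fold change of 0.67 (95% interval -0.47 to 1.80, edgeR adjusted p = 0.723) did not pass the test. Tlr1, the partner of Tlr2 for triacylated lipoproteins and the neighbour of Tlr6 on chromosome 5, was at 11.1, 10.2 and 15.6 CPM after sham and 54.5, 22.8 and 14.8 CPM after traction in Tem1WT/WT mice. Replicate 3 of the traction group lay within the sham range, and the log2 fold change of 1.32 (SE 0.48, edgeR adjusted p = 0.0908) was not called. Tem1lacZ/lacZ scars had 11.2, 8.35 and 14.8 CPM of Tlr1 after sham and 9.39, 24.6 and 20.4 CPM after traction, with overlap (log2 fold change 0.66, 95% interval -0.38 to 1.70). The transcripts of Tlr1 and Tlr6 share 454 windows of 50 identical bases, 13.6% of those of Tlr1 and 12.3% of those of Tlr6, and it is not given in the sources used here how reads from such stretches were assigned.

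Tlr4, the lipopolysaccharide receptor, was at 55.9, 43.8 and 68.1 CPM after sham and 125, 87.3 and 48.7 CPM after traction in Tem1WT/WT mice. The groups overlapped, and the log2 fold change was 0.63 (95% interval -0.12 to 1.39, edgeR adjusted p = 0.226). Without Tem1 it was at 62.8, 34.2 and 60.9 CPM after sham and 37.8, 50.7 and 60.1 CPM after traction. These groups overlapped too, and the log2 fold change in Tem1lacZ/lacZ mice was -0.09 (95% interval -0.84 to 0.66).

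Among the endosomal receptors, Tlr13, a sensor of bacterial ribosomal RNA that humans lack, was at 20.3, 23.0 and 40.5 CPM after sham and 119, 106 and 52.7 CPM after traction in Tem1WT/WT mice. Replicates 1 and 2 of the traction group were both far above the sham range and replicate 3 was just above it. The log2 fold change was 1.72 (SE 0.38, edgeR adjusted p = 0.0326). In Tem1lacZ/lacZ mice it was at 25.4, 18 and 36.5 CPM after sham and 34.2, 42.0 and 54.2 CPM after traction, where the groups overlapped (log2 fold change 0.71, 95% interval -0.11 to 1.52, edgeR adjusted p = 0.632).

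The other endosomal receptors gave no call for traction in Tem1WT/WT mice. Tlr8, a receptor for RNA fragments, was at 45.6, 45.0 and 67.1 CPM after sham and 80.9, 83.5 and 46.5 CPM after traction, so that replicate 3 of each group crossed into the other range (log2 fold change 0.42, 95% interval -0.32 to 1.16). Without Tem1, Tlr8 was at 53.7, 29.0 and 56.4 CPM after sham and 33.6, 59.7 and 69.5 CPM after traction (0.23, 95% interval -0.52 to 0.97). Tlr7, a receptor for single-stranded RNA that lies beside Tlr8 on the X chromosome, was at 34.8, 29.9 and 47.1 CPM after sham and 20.8, 39.5 and 46.6 CPM after traction. Its log2 fold change of -0.06 (95% interval -0.77 to 0.65) turned to 0.19 without replicate 1 of the traction group, in which Tlr7 was low while Tlr2, Tlr6 and Tlr13 were high. Tlr3, which senses double-stranded RNA and signals through Ticam1 and not Myd88, had the narrowest spread of the 10 genes, with a ratio of 1.5 between its highest and lowest library. Its log2 fold change was -0.25 (95% interval -0.60 to 0.11, edgeR adjusted p = 0.326), although every traction library lay below every sham library. It ran from 13.4 to 20.1 CPM over all 12 libraries. In Tem1lacZ/lacZ mice the log2 fold changes of traction were -0.08 for Tlr3 (95% interval -0.44 to 0.28) and -0.0006 for Tlr7 (95% interval -0.71 to 0.71). The antisense gene Gm45542 shares 381 exonic bases with Tlr3.

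Myd88, the adaptor that links the receptors other than Tlr3 to the Irak kinases, was at 54.9, 55.8 and 66.6 CPM after sham and 173, 78.8 and 69.6 CPM after traction in Tem1WT/WT mice. The groups did not overlap, but replicates 2 and 3 of the traction group lay close to the sham range. The log2 fold change was 0.86 (SE 0.29, edgeR adjusted p = 0.0741). The same gene in Tem1lacZ/lacZ mice was at 72.2, 65.7 and 66.1 CPM after sham and 71.5, 62.7 and 58.1 CPM after traction, with a log2 fold change of -0.09 (95% interval -0.71 to 0.54). Of the exonic bases of Myd88, 11.3% are shared with Acaa1a on the opposite strand.

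The promoter windows of the 3 called genes are printed here to show the sequence at the start sites of the receptors whose transcripts rose. They are RefSeq sequences on build GRCm38.p6 that run from 250 bases before to 50 bases after a start site, and windows were found for 8 of the 10 genes, all but Tlr4 and Tlr7. Capitals mark matches on either strand to 3 motifs of factors active in immune cells: GAGGAA, the core bound by PU.1; GAAANNGAAA, the core of the interferon response element; and the NF-kB consensus, searched by its common degenerate form. Of the 32851 windows of this length, 28.3%, 3.44% and 5.8% held the respective motif. The Tlr2 window lies at chr3:83841559-83841858 on the minus strand, the Tlr6 window at chr5:64959117-64959416 on the minus strand, and the Tlr13 window at chrX:106143025-106143324 on the plus strand.
Tlr2: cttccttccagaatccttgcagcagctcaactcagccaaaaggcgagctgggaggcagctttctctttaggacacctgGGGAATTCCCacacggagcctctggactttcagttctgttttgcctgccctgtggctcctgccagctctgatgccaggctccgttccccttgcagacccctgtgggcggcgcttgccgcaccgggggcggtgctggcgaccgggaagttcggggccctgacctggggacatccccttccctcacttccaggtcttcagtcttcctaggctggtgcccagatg
Tlr6: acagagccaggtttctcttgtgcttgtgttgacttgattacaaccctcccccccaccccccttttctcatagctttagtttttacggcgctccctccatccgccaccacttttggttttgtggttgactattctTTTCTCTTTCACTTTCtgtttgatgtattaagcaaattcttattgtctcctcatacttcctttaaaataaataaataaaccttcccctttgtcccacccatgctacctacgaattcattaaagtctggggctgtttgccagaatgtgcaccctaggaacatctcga
Tlr13: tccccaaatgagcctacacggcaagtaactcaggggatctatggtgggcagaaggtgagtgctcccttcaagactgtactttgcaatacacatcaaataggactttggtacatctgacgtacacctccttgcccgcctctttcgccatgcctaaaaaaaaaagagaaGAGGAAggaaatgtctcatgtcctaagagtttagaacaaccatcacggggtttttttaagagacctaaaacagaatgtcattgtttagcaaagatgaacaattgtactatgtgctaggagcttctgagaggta
The Tlr2 window held the NF-kB consensus as a palindrome, read on both strands. The Tlr6 window held a pair of interferon response element cores on the reverse strand that overlap each other, and a second start site of Tlr6 at chr5:64959999-64960298 held none of the motifs. The Tlr13 window held the PU.1 core. No motif was common to the 3 windows. The motifs were not limited to the called genes. The NF-kB consensus also lay in the Tlr3 window, the interferon response element core in that of Myd88, and the PU.1 core in windows of Tlr1, Tlr8 and Tlr9. A match describes letters only and no binding was measured.

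**Figure D2:**
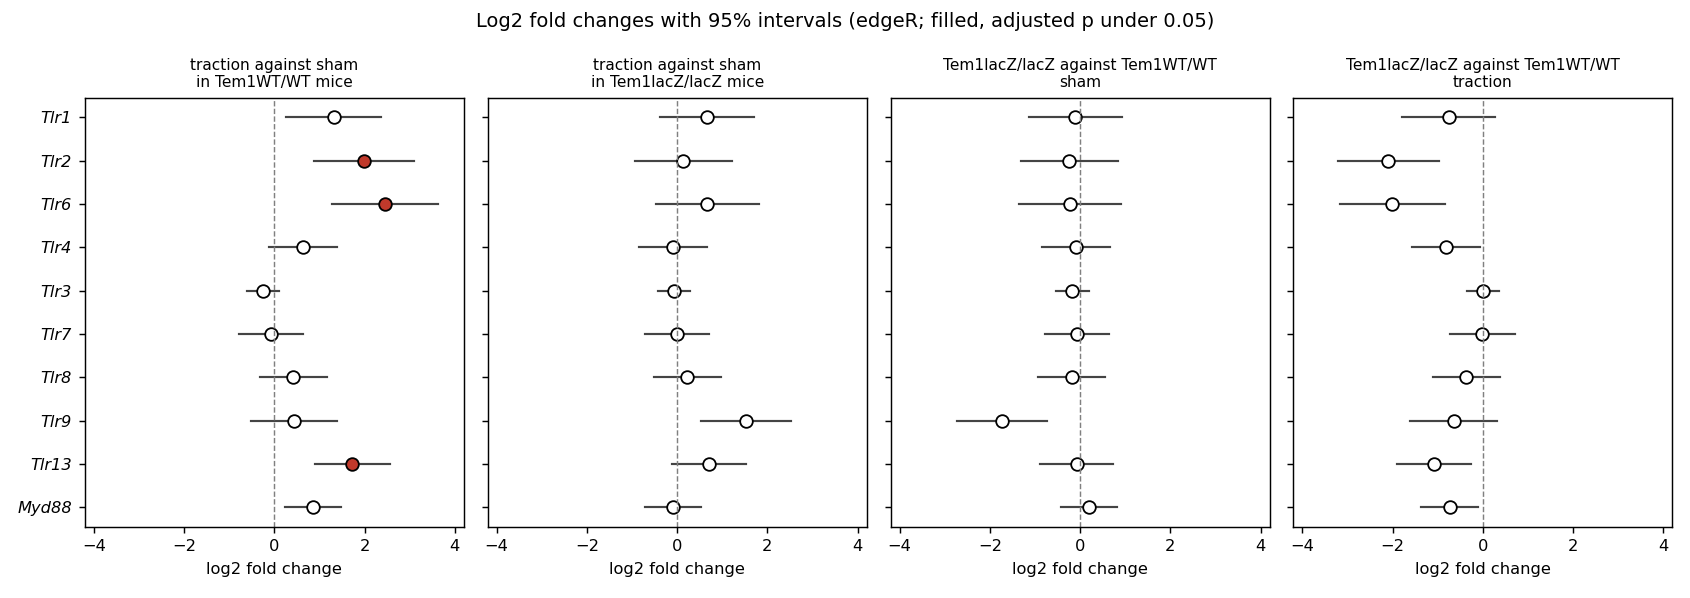
Log2 fold change of each gene (horizontal axes) in 4 comparisons, one per panel, with 95% intervals from edgeR's quasi-likelihood fit. Filled points passed an adjusted p of 0.05: they are Tlr2, Tlr6 and Tlr13 for traction in Tem1WT/WT mice (1.99, 2.45 and 1.72), and no point is filled in the other panels.

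How far these calls rest on single libraries was examined by leaving each out. Without replicate 1 of Tem1WT/WT traction, Tlr6 was still called (log2 fold change 1.37, edgeR adjusted p = 0.0497), while Tlr2 (0.87, adjusted p = 0.0546) and Tlr13 (1.49, adjusted p = 0.0616) were not. In the same fit Tlr1 was at 0.60, Tlr4 at 0.27 and Myd88 at 0.31, and 360 genes were called in all against 1725 with all libraries. The number of called members was 0 without replicate 1 or replicate 2 of Tem1WT/WT sham, in which fits edgeR called no gene at all. It was 0 without replicate 3 of Tem1lacZ/lacZ sham, where 169 of 19366 genes were called. It was 4 without replicate 2 of Tem1WT/WT traction, where 2861 of 19400 genes were called. The log2 fold changes of the called genes stayed positive throughout, between 0.87 and 2.35 for Tlr2, 1.37 and 2.84 for Tlr6, and 1.49 and 2.09 for Tlr13.

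**Figure D3:**
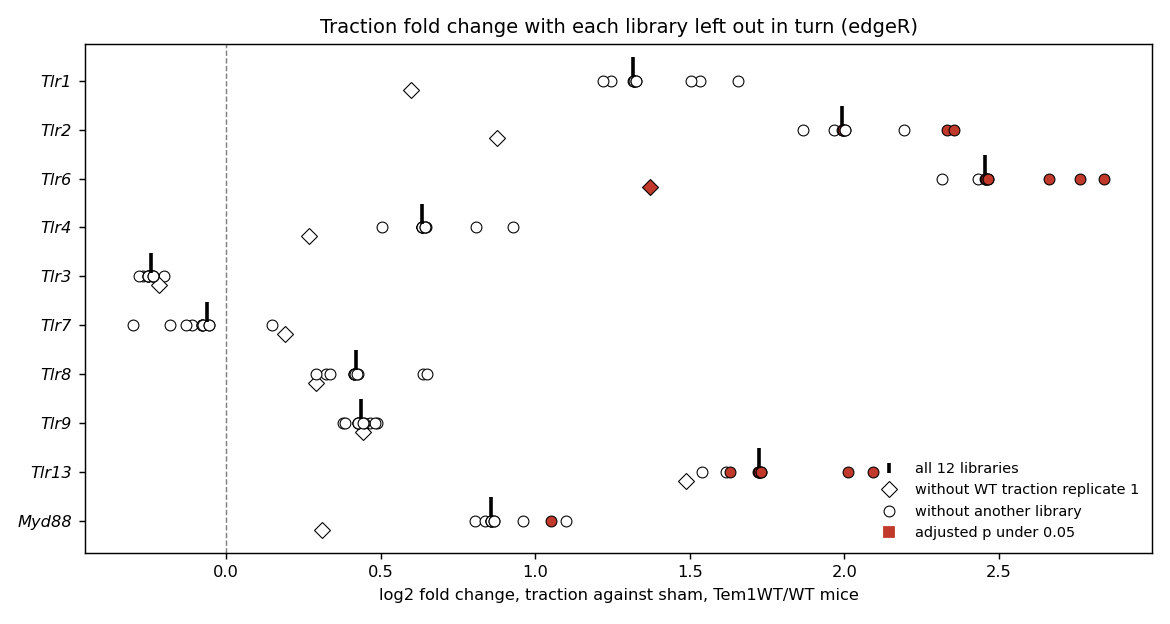
Log2 fold change for traction in Tem1WT/WT mice (horizontal axis) with all 12 libraries (black tick) and with each library left out (points, some of which overlie each other). Diamonds are the fits without replicate 1 of the traction group and red marks an adjusted p under 0.05. The diamonds of Tlr2, Tlr6, Tlr1 and Myd88 lie furthest below their ticks, at 0.87, 1.37, 0.60 and 0.31.

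Markers of several cell types moved in the same comparison. Of the 8 neutrophil markers tested, 4 rose with traction in Tem1WT/WT mice (Csf3r, Cxcr2, Lcn2 and Stfa2l1). Of the 8 dendritic cell markers Xcr1 and Cd209a fell (log2 fold changes -2.11 and -1.43). That list was mixed, with 2 positive values, the largest 1.40 and not called, and a median of -0.70. When replicate 1 of the traction group was left out, Csf3r, Stfa2l1 and Xcr1 were called, whereas Lcn2 went from 4.98 to 0.93 (edgeR adjusted p = 0.234), Cxcr2 from 4.86 to 3.18 (adjusted p = 0.0502) and Cd209a to -1.36 (adjusted p = 0.0522), and the median of the neutrophil list went from 4.12 to 0.84. Beyond the immune cells, 3 of the 4 endothelial markers rose (Pecam1 1.11, Cdh5 1.60 and Tie1 1.55), as did the fibroblast marker Pdgfra (1.45) of 5. The 4 skeletal muscle markers had a median of -2.99 and the 4 adipocyte markers of -1.53, with no call by edgeR in either list. Without the same replicate, Tie1 alone of the endothelial and fibroblast markers was called, and of the muscle markers 2 were called (median -4.22). The 13 markers of macrophages and monocytes had a median log2 fold change of 0.35 and none was called. Their sum was 2815 to 4667 CPM in Tem1WT/WT sham, 4352 to 5160 CPM in Tem1WT/WT traction, 2292 to 4473 CPM in Tem1lacZ/lacZ sham and 2585 to 4903 CPM in Tem1lacZ/lacZ traction. The part of cell composition in the members' values was not tested.

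The members were also set beside the summed level of 3 general leukocyte markers, Ptprc, Laptm5 and Coro1a, as CPM per 100 CPM of those markers. On this scale Tlr6 was at 1.55 ± 0.101 (SD, n = 3) in Tem1WT/WT sham and 3.29 ± 1.01 in Tem1WT/WT traction. Tlr2 was at 7.79 ± 0.428 and 12.1 ± 4.04, and Tlr13 at 8.69 ± 2.16 and 13.8 ± 4.39, in the same groups. All 3 stretched scars lay above all 3 unstretched scars for Tlr6 and, narrowly, for Tlr2 (lowest 8.40 against highest 8.28), and the ranges of Tlr13 overlapped. Tlr1 was at 3.87 ± 0.317 and 4.06 ± 0.28. The other 6 members had lower means in stretched scars: 17.6 and 12.6 for Tlr4, 6.09 and 2.75 for Tlr3, 11.7 and 6.87 for Tlr7, 16.5 and 11 for Tlr8, 3.17 and 2.31 for Tlr9, and 18.9 and 15.2 for Myd88. Of these, Tlr4, Tlr3 and, narrowly, Tlr8 did not overlap between the groups. Tem1lacZ/lacZ scars had Tlr4 at 22.3 ± 2.35 after sham and 15.3 ± 2.22 after traction, Tlr2 at 9.15 ± 1.34 and 7.45 ± 2.36, Tlr6 at 1.81 ± 0.0902 and 2.09 ± 0.374, and Tlr13 at 11.2 ± 1.28 and 13.5 ± 2.26. In the same genotype the means after sham and traction were 7.33 and 5.03 for Tlr3, 15.2 and 10.8 for Tlr7, and 19.5 and 16.3 for Tlr8. They were 30.5 and 21.7 for Myd88, 4.89 and 5.38 for Tlr1, and 1.25 and 2.32 for Tlr9. The marker sum itself was 314, 262 and 375 CPM in Tem1WT/WT sham and 1245, 576 and 386 CPM in Tem1WT/WT traction. A gene that did not rise with that sum therefore has a lower ratio. The share of all genes without overlap on this scale was not computed. The separations between groups therefore cannot be read as a result about the members. These ratios are descriptions without a test.

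In Tem1lacZ/lacZ mice traction gave no call among the members, nor among all genes (0% in edgeR). At an unadjusted p under 0.05 there was 1 member, Tlr9 (8.12% of all genes). DESeq2 called 0 members (0.128% of all genes), and limma-voom called 1, again Tlr9 (2.31%). Tlr6 was the 1 member whose traction libraries all lay above the sham libraries (6.77%). The smallest edgeR adjusted p over all genes was 0.598.

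Tlr9, the endosomal receptor for unmethylated CpG DNA, was the 1 member whose sham scars did not overlap between the genotypes (13.8% of all genes in this direction). It was at 10.2, 10.2 and 8.89 CPM in Tem1WT/WT sham and 12.8, 12.7 and 14.3 CPM in Tem1WT/WT traction. It was at 3.76, 1.99 and 3.03 CPM in Tem1lacZ/lacZ sham and 2.59, 10 and 12.6 CPM in Tem1lacZ/lacZ traction. All sham Tem1lacZ/lacZ scars lay below all Tem1WT/WT scars, and after traction 1 of the 3 Tem1lacZ/lacZ scars lay with the sham ones while the other two lay near the Tem1WT/WT level. The log2 fold change of traction in Tem1lacZ/lacZ mice was 1.52 (SE 0.45, edgeR adjusted p = 0.598), and without replicate 1 of that group it was 1.99 (adjusted p = 0.0426). In Tem1WT/WT mice it was 0.44 (95% interval -0.52 to 1.40).

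Sham scars of the genotypes gave 0 members called (0.0106% of all genes), with 1 at an unadjusted p under 0.05, Tlr9 (11.7%). DESeq2 called 0 members (0.156%) and limma-voom 0 (0.0053%). Tlr9 had a log2 fold change of -1.74 in Tem1lacZ/lacZ against Tem1WT/WT sham scars (SE 0.45, edgeR adjusted p = 0.409, DESeq2 adjusted p = 0.0546). It was the 1 member whose groups did not overlap in this direction (13.8%). The other 9 members had log2 fold changes from -0.24 to 0.20.

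After traction, Tem1lacZ/lacZ scars had lower values than Tem1WT/WT scars for 9 of the 10 members, but none was called by edgeR (0.106% of all genes called). The median of the members was -0.75, against 0.01 over all tested genes, 51% of which had positive values. Tlr7, 1 of the 9, was at -0.01 and changed sign in 12 of 21 alternative fits. At an unadjusted p under 0.05 there were 5 (26.1% of all genes), namely Tlr2, Tlr6, Tlr13, Tlr4 and Myd88. DESeq2 called Tlr2, Tlr6 and Tlr13 (12.8%), and limma-voom called 0 (0.0849%). Tlr2 had a log2 fold change of -2.10 (SE 0.51, edgeR adjusted p = 0.0919), Tlr6 of -2.01 (SE 0.53, edgeR adjusted p = 0.0951) and Tlr13 of -1.09 (SE 0.37, edgeR adjusted p = 0.118). Groups did not overlap for Tlr2, Tlr6 and Tlr9 (13.7% of all genes in this direction). Without replicate 1 of Tem1WT/WT traction the values were -0.97 for Tlr2, -0.91 for Tlr6 and -0.83 for Tlr13. This comparison and that of traction in Tem1WT/WT mice share the 3 Tem1WT/WT traction libraries.

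Whether the response to traction differed between genotypes was tested as an interaction, the response in Tem1lacZ/lacZ minus that in Tem1WT/WT mice. No member was called in edgeR (0% of all genes), DESeq2 (0.368%) or limma-voom (0%). At an unadjusted p under 0.05 there were 3 (8.91%): Tlr2 (-1.86, 95% interval -3.39 to -0.32), Tlr6 (-1.78, 95% interval -3.39 to -0.18) and Myd88 (-0.94, 95% interval -1.83 to -0.06). Without replicate 1 of Tem1WT/WT traction these values moved to -0.71 for Tlr2, -0.67 for Tlr6 and -0.37 for Myd88 (edgeR adjusted p from 0.595 to 0.691). The difference between genotypes in the traction response thus did not pass the adjusted test for any member.

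Levels of different genes were compared per length, as CPM divided by the exon length in kilobases (RPKM). Myd88 had the highest mean in each of the 4 groups, at 22.9 ± 2.52 (SD, n = 3) in Tem1WT/WT sham and 41.6 ± 22.2 in Tem1WT/WT traction. Among the receptors Tlr8 led in Tem1WT/WT sham (14.7 ± 3.51), Tem1lacZ/lacZ sham (12.9 ± 4.2) and Tem1lacZ/lacZ traction (15.1 ± 5.17). In Tem1WT/WT traction the order of the means was Tlr2 (32.8 ± 30.3), Tlr13 (21.5 ± 8.14), Tlr8 (19.6 ± 5.77) and Tlr4 (15.6 ± 6.82). The order of Tlr2, Tlr13 and Tlr8 differed between the libraries, while Tlr4 lay below them in each. The lead of Tlr2 came from replicate 1 (67.8 RPKM): the mean of replicates 2 and 3 was 15.3 RPKM for Tlr2, below 18.4 for Tlr13 and 18.1 for Tlr8 and above 12.2 for Tlr4. In Tem1WT/WT sham scars Tlr4 (10.1 ± 2.18), Tlr7 (9.13 ± 2.17), Tlr2 (8.25 ± 1.92) and Tlr13 (6.49 ± 2.54) followed Tlr8. This order from Tlr8 to Tlr13 held within each of the 3 libraries. Tlr1 (3.68 ± 0.865), Tlr3 (3.62 ± 0.212), Tlr9 (2.81 ± 0.22) and Tlr6 (1.33 ± 0.323) came last.

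**Figure D4:**
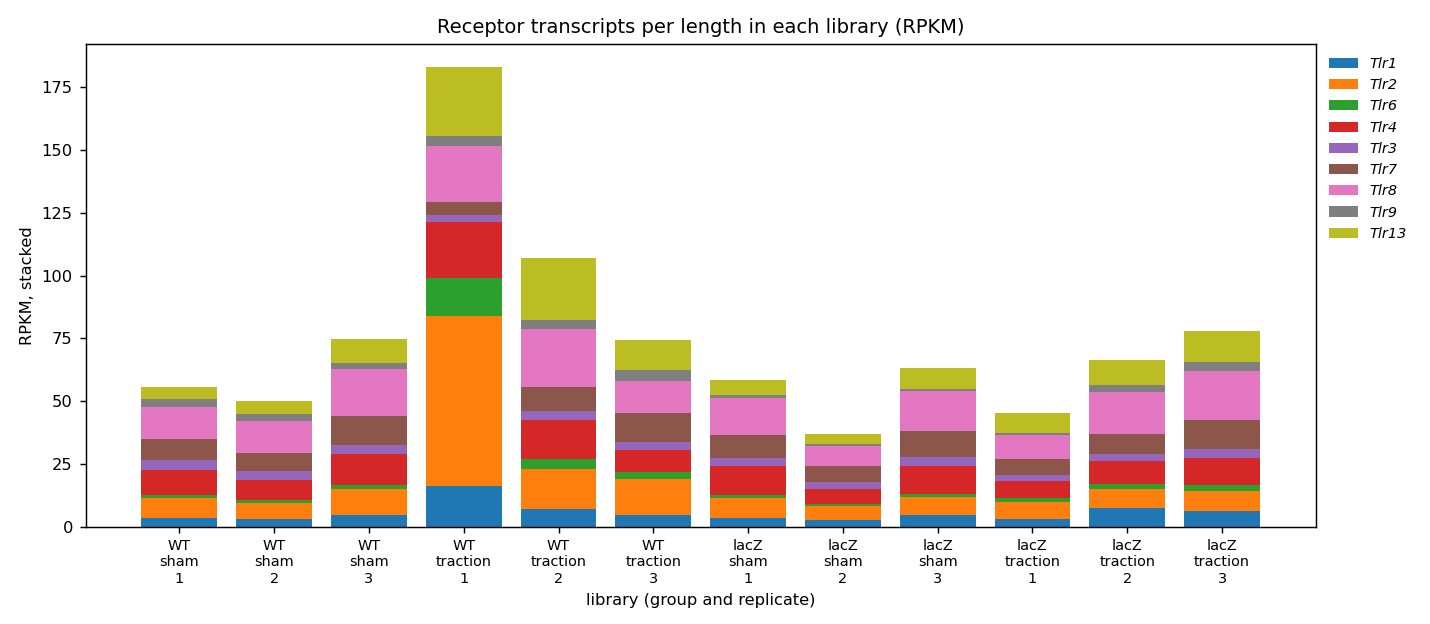
Levels of the 9 receptors in each library, stacked (vertical axis, RPKM; horizontal axis, group and replicate). The stack reaches 183 RPKM in replicate 1 of Tem1WT/WT traction, 107 in replicate 2 and 74.4 in replicate 3, the last within the range of the sham and Tem1lacZ/lacZ libraries.

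The summed receptor level was 55.4, 50.2 and 74.6 RPKM in Tem1WT/WT sham and 183, 107 and 74.4 RPKM in Tem1WT/WT traction. In Tem1lacZ/lacZ mice it was 58.3, 37.0 and 63.3 RPKM after sham and 45.1, 66.2 and 78.1 RPKM after traction. The Tem1WT/WT groups overlapped through their replicates 3, and Tlr2 alone made up 23.9% ± 11.6 (SD, n = 3) of the receptor sum in Tem1WT/WT traction (37.0% in replicate 1, 15% and 19.5% in the others) against 13.7% ± 0.719 in Tem1WT/WT sham. The share of Tlr7 was 9.06% ± 6.28 (2.78% in replicate 1) and 15.2% ± 0.491 in the same groups.

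The genes whose pattern over the 12 libraries was most like that of each member were found by Pearson's r of log2 CPM. They are given as a description of libraries that share 4 groups and hold outlying samples, among them replicate 1 of each traction group. Tlr2 lay nearest to Cd33 (r = 0.99), a receptor of myeloid cells, then to Tpm3 and Gpr132 (both 0.98). Tlr13 lay nearest to Cd300ld (0.96), also a myeloid receptor, then to Gimap6 and Raet1e (both 0.95). Tlr1 lay nearest to Rac2 (0.98) and Itgam (0.96), which are carried by phagocytes, Tlr6 to Fth1 (0.99), the ferritin heavy chain, and Tlr4 to Klf6 (0.96), a transcription factor. Next came Lyn (0.96) for Tlr1, Dhx40 and Fmnl1 (both 0.98) for Tlr6, and Cd37 (0.96) and Gda (0.95) for Tlr4. Tlr7 lay nearest to Ccdc80 (0.94), a secreted matrix protein, Tlr8 to Gm26637 (0.96), Tlr3 to Ccdc170 (0.93) and Myd88 to Fbxl5 (0.97). For Myd88 the r fell to 0.83 without replicate 1 of Tem1WT/WT traction, and the number of genes with r of at least 0.9 went from 141 to 4. The same number went from 348 to 98 for Tlr2 and from 408 to 182 for Tlr6.

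Tlr9 was like a different set of genes: Vac14 (r = 0.98), which acts in lipid signalling at endosomes, and Kmt2a (0.98) and Bptf (0.97), both chromatin regulators. Without replicate 1 of Tem1WT/WT traction the values were 0.98, 0.98 and 0.97, and 553 genes had r of at least 0.9, against 363 with all libraries. That replicate lay near its group for Tlr9. Replicate 1 of Tem1lacZ/lacZ traction was not left out for these correlations, so how far the likeness rests on it was not tested. Kmt2a was at 72.8 ± 3.09 CPM (SD, n = 3) in Tem1WT/WT sham, 41.3 ± 8.92 CPM in Tem1lacZ/lacZ sham and 63.5 ± 20.5 CPM in Tem1lacZ/lacZ traction. As for Tlr9, replicate 1 of Tem1lacZ/lacZ traction was low for these genes, with 40.2 CPM of Kmt2a, 13.2 CPM of Vac14 and 70.7 CPM of Bptf. The B cell markers, which mark a cell type known for Tlr9, summed to 1.53 to 4.12 CPM over the 12 libraries.

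**Figure D5:**
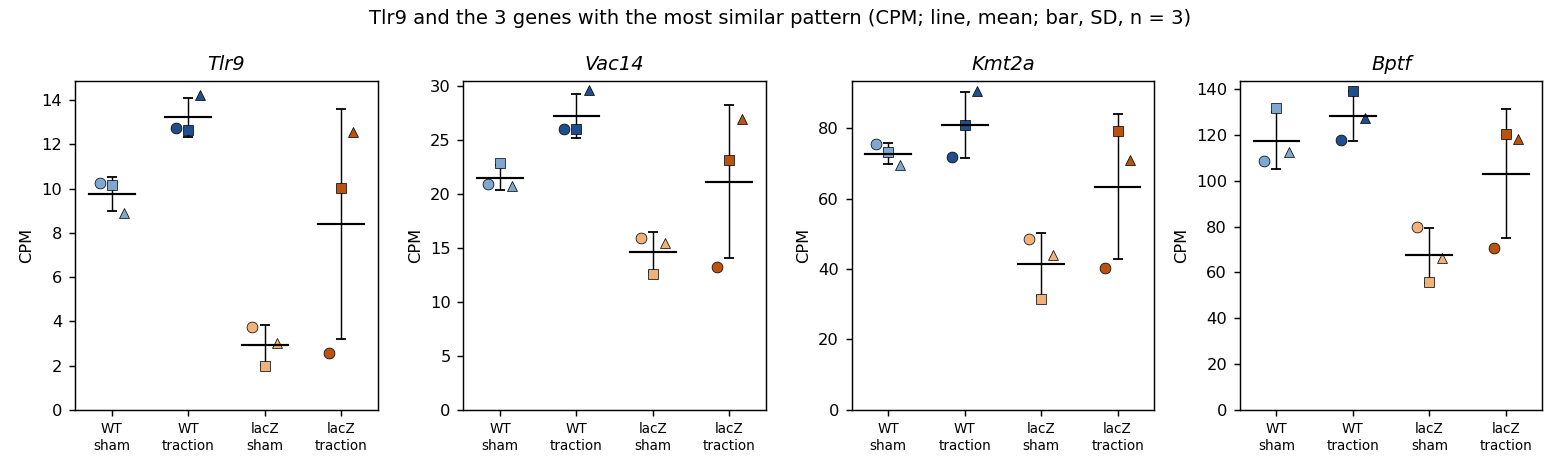
Level of Tlr9 and of the 3 genes most like it in every library (vertical axes, CPM, from 0; horizontal axes, the 4 groups; line, mean; bar, SD over 3 mice). In each panel the 3 Tem1lacZ/lacZ sham points and replicate 1 of Tem1lacZ/lacZ traction (circle, 2.59 CPM for Tlr9) lie below every Tem1WT/WT point.

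The other genes of the pathway were counted by role for traction in Tem1WT/WT mice, to be read against the 9.15% of all tested genes called there. Of 6 co-receptors and ligand carriers 1 rose, Cd14, which hands lipopolysaccharide to the Tlr4 complex. Cd14 was at 20.7, 14.6 and 33.2 CPM after sham and 979, 55.9 and 93.7 CPM after traction (log2 fold change 4.04, SE 0.95, edgeR adjusted p = 0.0349). All stretched scars lay above the sham ones, with replicate 1 far above, and without it the value was 1.69 (adjusted p = 0.0523). Ly96, the subunit that holds the ligand beside Tlr4, was at 0.27 (adjusted p = 0.407). Of 3 chaperones none was called by edgeR, and Unc93b1, which carries the endosomal receptors out of the endoplasmic reticulum, had a log2 fold change of 0.56 (adjusted p = 0.227). The remaining mouse receptors gave log2 fold changes of 0.55 for Tlr5, the flagellin receptor (adjusted p = 0.258), -2.11 for Tlr11 (adjusted p = 0.0524) and 0.56 for Tlr12 (adjusted p = 0.569).

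Of 5 further adaptors Tirap, which joins Myd88 to Tlr2 and Tlr4, rose from 15.8, 15.6 and 17.1 CPM to 42.9, 27.3 and 25.5 CPM (log2 fold change 0.98, SE 0.19, edgeR adjusted p = 0.0278). Ticam1, the adaptor of Tlr3, was at 0.50 (adjusted p = 0.0937). Of 14 kinases and ubiquitin ligases 1 rose, Irak4, the first kinase of the Myd88 complex (0.75, SE 0.18, edgeR adjusted p = 0.0354), while Irak1 (0.37) and Traf6 (0.21) were not called. That list had 7.14% called, below the share over all genes, and a median of 0.21, above the -0.01 over all genes. Of 7 transcription factors the NF-kB subunits Nfkb2 (1.53) and Rela (1.02) rose, and of 8 negative regulators Socs1 (2.39) rose. Leaving out replicate 1 of the traction group, these were 0.72, 0.63 and 0.94, none of them called, and the list medians went from 0.46 to 0.01 for the factors and from 1.30 to 0.09 for the regulators. In lists of 8 genes or fewer a single call already exceeds the share over all genes.

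Of 7 proteins described as endogenous TLR ligands 4 rose: S100a8 (5.11) and S100a9 (5.63), which neutrophils hold in large amounts, and the matrix proteins Bgn (1.45) and Tnc (3.75). Of 10 tested inducible targets 5 rose: Il6 (3.92), Il1b (6.42), Cxcl1 (4.29), Ptgs2 (4.92) and Nos2 (6.51), with a list median of 4.11. With replicate 1 of the traction group left out, Il1b was at 2.49, Ptgs2 at 2.30, S100a8 at 2.20 and S100a9 at 2.21, moves of more than 2 on the log2 scale. Il6 (3.30), Tnc (2.64), Irak4 (0.66) and Bgn (1.51) kept most of their size, and the median of the target list was 2.40. Nos2, the inducible nitric oxide synthase, was at 1.74, 1.13 and 3.11 CPM after sham and 391, 86.8 and 66.8 CPM after traction. All pathway genes called in this comparison were higher after traction, 15 in all, and without replicate 1 of the traction group 4 of them were still called, namely Tirap (0.69), Bgn, Cxcl1 (3.70) and Nos2 (5.25). In Tem1lacZ/lacZ mice none of these lists held a call for traction in edgeR. Between genotypes after traction, Cxcl1 (-4.30, edgeR adjusted p = 0.0335) and Nos2 (-6.28, edgeR adjusted p = 0.0136) were lower in Tem1lacZ/lacZ scars. Without replicate 1 of Tem1WT/WT traction Nos2 was called (-5.01, edgeR adjusted p = 0.00197) and Cxcl1 was not (-3.70, edgeR adjusted p = 0.051).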

How the data were processed

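Raw read counts per gene, 1 table per library, were used as deposited. Per the labels and methods, the authors prepared stranded poly(A) libraries, sequenced paired ends, trimmed with fastp 0.20.0, aligned with HISAT2 2.1.0 to GRCm38 and counted with featureCounts 2.0.0; the annotation, the strand setting and the treatment of reads with several matches are not given in the sources used here. Groups came from the sample labels. The p-values set differences between groups against the spread between the 3 mice of a group, estimated in the main fit over all 4 groups together. Genes were filtered by group (edgeR's filterByExpr, minimum count 10), scaled by TMM and fitted in 1 model over 4 groups with edgeR 4.0.16 (robust quasi-likelihood, Benjamini-Hochberg over 18853 genes). DESeq2 1.42.0, limma 3.58.1 (voom), other filters and scalings, a replicate block and leaving out each library were alternatives. CPM and RPKM used TMM-scaled libraries and exon lengths of GENCODE. Every replicate pair differed by more than sampling noise. All 10 members and up to 5 called genes per list are named, beside co-receptors and adaptors chosen by role. The members and lists were chosen with earlier results of these data known, and the motifs after the promoter sequences had been read. The procedure was tested on simulated data.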

Additional observations from a re-analysis of the deposited data

How the results depend on the processing

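There were 3 mice per group, and each member had at least 84 counts in every library. What limited the calls was not tested. Members called for traction in Tem1WT/WT mice numbered 3, against 5 in DESeq2 and 0 in a fit of only the 6 libraries compared, where no gene at all was called. With each library left out the number was 0 to 4, while 0 to 2861 genes were called in all. For traction in Tem1lacZ/lacZ mice the number was 0, against 1 in limma-voom and 0 to 1 with a library left out (0 to 73 over all genes). Between genotypes after traction it was 0, against 3 in DESeq2 (12.8% of all genes) and 0 to 2 with a library left out. Over all genes 20 were called in this comparison with all libraries and 14 without replicate 1 of Tem1WT/WT traction. The share of all genes in the fit with 2 members called is not given here. That count therefore cannot be read as a result about the members. Whether the replicate numbers pair the libraries was not settled. After removal of the group means, correlations ran from -0.32 to 0.25 between libraries of the same number. They reached 0.37 between libraries of different numbers, and 8 of 12 libraries lay nearest their own number. With the replicate block 2 members were called for traction in Tem1WT/WT mice (1467 of 18853 genes), Tlr2 going to 1.78 (edgeR adjusted p = 0.0532).

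Changes of sign were limited to log2 fold changes that were not called. For traction in Tem1WT/WT mice, Tlr7 was 0.012 in limma-voom. For traction in Tem1lacZ/lacZ mice, Tlr7 was 0.036 with all genes kept, 0.010 with DESeq2 size factors and in DESeq2, and 0.064 in limma-voom. Between genotypes after sham, limma-voom gave 0.033 for Tlr1, 0.040 for Tlr7 and 0.076 for Tlr13. Between genotypes after traction, Tlr3 was -0.010 with DESeq2 size factors, -0.0096 in DESeq2 and -0.0056 with the replicate block, and Tlr7 was 0.015 with all genes kept, 0.021 with at least 10 counts in every library, 0.11 with upper quartile scaling, 0.091 in limma-voom and 0.0068 in the 6 libraries.

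With each library left out, values that changed sign ranged for traction in Tem1WT/WT mice from -0.30 to 0.19 for Tlr7. They ranged for traction in Tem1lacZ/lacZ mice from -0.20 to 0.077 for Tlr3, -0.29 to 0.12 for Tlr4, -0.29 to 0.22 for Tlr7. They ranged between genotypes after sham from -0.34 to 0.11 for Tlr1, -0.26 to 0.13 for Tlr4, -0.25 to 0.14 for Tlr7, -0.36 to 0.052 for Tlr8, -0.38 to 0.30 for Tlr13. They ranged between genotypes after traction from -0.12 to 0.15 for Tlr3, -0.29 to 0.24 for Tlr7. They ranged for the interaction from -0.96 to 0.10 for Tlr1, -0.23 to 0.34 for Tlr7, -0.42 to 0.11 for Tlr8.
The cause of these changes was not tested.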
